A study of Mus musculus with 4 samples.

Results

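The 9 genes described here, Thbd, Procr, Tfpi, F3, Vwf, Plat, Nos3, Edn1 and Ece1, set the haemostatic balance and the tone of blood vessels. They were chosen by name among 21951 protein-coding genes, and RNA polymerase II (Pol II) peaks were collected for each within 1500 bp of any annotated TSS, in the rest of the gene body, and in the 50 kb on either side. Pol II ChIP-seq maps where the enzyme sits on chromatin, and a peak is a stretch where immunoprecipitated fragments pile up above the local background of the same library. The material was flow-sorted brain endothelial cells (ECs), 200000 per library, and the chromatin was digested with MNase. In both groups the mice were on the C57BL/6J background, carried the tamoxifen-inducible VE-cadherin (Cdh5) Cre and received tamoxifen at 8 weeks of age. The old WT Cre mice, aged 20 to 23 mo, kept intact Klf4 and gave 2 libraries, their replicates 1 and 2, called O1 and O2 here. The young EC-K4KO mice, aged 4 to 6 mo, also carried floxed Klf4, which the Cre deletes in ECs, and gave 2 libraries called K1 and K2. This Cre acts in ECs of all organs. Genotype and age changed together between the groups, so their parts in any difference cannot be told apart. The labels give replicate numbers without saying whether the libraries came from separate animals, so a test over libraries measures only the spread between these samples.

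ECs hold blood fluid by several routes. Thrombomodulin (Thbd) binds thrombin and turns it toward activation of protein C, the endothelial protein C receptor (Procr) presents protein C to that complex, and tissue factor pathway inhibitor (Tfpi) blocks the start of coagulation. Tissue factor (F3) starts coagulation, von Willebrand factor (Vwf) tethers platelets and carries factor VIII, and tissue plasminogen activator (Plat) opens fibrinolysis. Endothelial nitric oxide synthase (Nos3) makes the dilator nitric oxide, while endothelin converting enzyme (Ece1) cuts the precursor encoded by Edn1 into the constrictor endothelin. KLF4 is a zinc finger transcription factor that binds CACCC and GC-rich elements and is known in ECs as an activator of Thbd and Nos3.

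Pol II peaks at these genes were about as frequent as over all genes of the same library, and most were called in 1 library alone. Promoter peaks were called in O1 at 2 of the 9 genes (F3 and Vwf), in O2 at 1 (Procr), in K1 at 1 (Tfpi) and in K2 at 6 (Nos3, Thbd, Procr, F3, Edn1 and Tfpi). Over all protein-coding genes, a promoter peak was present at 25.6%, 24.5%, 10.6% and 67.5% in the same 4 libraries. In each library the share of the 9 genes, 22.2%, 11.1%, 11.1% and 66.7%, was thus near or below that of all genes. None of the 9 genes had a promoter peak in more than 2 libraries. Over all genes 2.22% had one in all 4, a share at which 0 of 9 does not stand apart. The old WT Cre mean was 1.5 ± 0.707 genes and the young EC-K4KO mean 3.5 ± 3.54 (SD, n = 2 each), a difference within the spread between libraries (two-sided exact permutation test over the 4 libraries, p = 1, where 2 against 2 allow no p below 0.33).

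The libraries themselves were unequal. The peak caller counted 22705175 to 65734178 fragments per library and called 35638 to 235591 peaks, with K2 holding the fewest fragments and the most peaks. Between 1.73% and 15.3% of a library's fragments lay over its single tallest peak, more in O1 and O2 (14.6% and 15.3%) than in K1 and K2 (3.36% and 1.73%). The lowest called peaks had 13 fragments at their summit (their pileup) in O1, 8 in O2, 9 in K1 and 7 in K2, and heights are also given per 1000000 fragments of the library (FPM). At Klf4 a promoter peak was called in neither old WT Cre library and in K1 and K2, with pileups of 15 and 20 fragments, and such a peak does not measure the transcript or check the deletion. Of 12 EC markers, 5, 6, 0 and 7 had a promoter peak in O1, O2, K1 and K2. Pecam1, Tek, Tie1 and Slco1a4 had none in any library. The shares were 41.7%, 50%, 0% and 58.3%, against 25.6%, 24.5%, 10.6% and 67.5% of all genes. In K1 and K2 the share was thus below that of all genes, so their peaks do not check the labelled cell type. Summed over the 12, the promoter pileup was 1.70 FPM in O1, 3.31 in O2, 0 in K1 and 9.20 in K2. Promoter peaks also stood at markers of other cells, counted in that order of libraries. They stood at 3, 0, 2 and 4 of 6 mural markers and 2, 1, 1 and 3 of 6 astrocyte markers. For oligodendrocyte markers the counts were 0, 1, 1 and 5 of 6, and for microglial markers 3, 1, 0 and 5 of 6. Neuronal markers had 0, 2, 0 and 4 of 6, and leukocyte and erythroid markers 0, 0, 1 and 3 of 6. In K2, where 67.5% of all genes had a promoter peak, each list thus had 3 to 5 of 6. These counts do not show that such cells were present. Whether such cells contributed to the peaks described below was not tested. In sorted cells taken in bulk, fewer cells with Pol II at a gene and less Pol II per cell cannot be told apart.

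Sequences from 4 places where the peaks of 2 libraries met are shown, from the anticoagulant gene Tfpi, from Nos3 and from Vwf, together with the bases just before the TSS of Procr and F3, whose shared peaks lay at the 5′ end of the transcript. All are 200 bases of GRCm38 (mm10), written 5′ to 3′ on the strand of the gene, with CACCC and its reverse complement GGGTG, the core of KLF binding elements, in capitals.
Tfpi, intron 3, chr2:84473432-84473631, minus strand, K1 and K2: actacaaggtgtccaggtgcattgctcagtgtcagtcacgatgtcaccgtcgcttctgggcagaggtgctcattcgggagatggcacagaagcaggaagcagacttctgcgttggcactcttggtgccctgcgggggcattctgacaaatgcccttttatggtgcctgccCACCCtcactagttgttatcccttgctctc
Procr, upstream of the TSS, chr2:155750917-155751116, plus strand, its last bases under the O2 peak: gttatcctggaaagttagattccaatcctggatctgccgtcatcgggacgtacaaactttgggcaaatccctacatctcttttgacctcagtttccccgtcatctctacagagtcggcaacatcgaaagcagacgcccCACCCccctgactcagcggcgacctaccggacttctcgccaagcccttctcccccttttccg
F3, upstream of the TSS, chr3:121723337-121723536, plus strand, under the K2 peak: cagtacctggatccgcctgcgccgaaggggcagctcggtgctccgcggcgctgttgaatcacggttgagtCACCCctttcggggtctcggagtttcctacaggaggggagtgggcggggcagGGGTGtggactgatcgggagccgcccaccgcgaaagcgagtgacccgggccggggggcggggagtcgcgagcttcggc
Nos3, coding exon 19, chr5:24380169-24380368, plus strand, K1 and K2: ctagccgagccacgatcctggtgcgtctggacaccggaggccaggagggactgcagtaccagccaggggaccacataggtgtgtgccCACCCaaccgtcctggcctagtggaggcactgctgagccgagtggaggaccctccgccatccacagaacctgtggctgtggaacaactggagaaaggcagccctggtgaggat
Vwf, coding exon 28, chr6:125642996-125643195, plus strand, O1 and K2: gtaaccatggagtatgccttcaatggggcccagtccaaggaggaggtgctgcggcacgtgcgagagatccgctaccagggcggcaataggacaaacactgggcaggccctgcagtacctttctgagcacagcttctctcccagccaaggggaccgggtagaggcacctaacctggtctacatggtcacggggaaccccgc
Vwf, intron 18, chr6:125619526-125619725, plus strand, O1 and O2: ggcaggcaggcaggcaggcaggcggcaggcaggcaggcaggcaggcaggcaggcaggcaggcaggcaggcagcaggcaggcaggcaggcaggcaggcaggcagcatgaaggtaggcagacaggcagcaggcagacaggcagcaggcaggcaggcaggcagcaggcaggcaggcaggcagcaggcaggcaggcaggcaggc

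The letters CACCC were found on either strand within the 200 bases upstream of the first TSS of 7 of the 9 genes. These were Nos3, Procr, F3, Plat, Edn1, Ece1 and Tfpi, and none of those bases held them at Thbd or Vwf. At Vwf and Tfpi the promoter peaks lay nearest to other annotated TSS, and the bases upstream of those TSS were not searched. Over the 21938 protein-coding genes on assembled chromosomes, 46.8% held them in the same window. The GC box GGGCGG stood upstream of 5 genes (Nos3, Thbd, F3, Plat and Tfpi; 39.3% of all), the AP-1 letters TGANTCA, N being any base, upstream of Procr and F3 (4.66% of all) and the ETS core CCGGAA upstream of none (12.8% of all). Among the 42111 merged regions with peaks of 2 or more libraries on those chromosomes, 50.7% held CACCC in the 200 bases around their middle. Of the 25 such regions at and around the 9 genes 11 (44%) did, among them those of Tfpi and Nos3 shown but neither of the Vwf regions shown. These are matches of letters, not measured binding sites.

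Tfpi, an anticoagulant gene, was the only 1 of the 9 genes with promoter peaks in both libraries of a group and in neither of the other. With 7 annotated TSS, its promoter window was wider than that of a gene with 1 TSS. Neither old WT Cre library had a promoter peak. In K1 the tallest promoter peak had a pileup of 15 fragments (0.426 FPM) and lay 227 bp upstream of the nearest of the 7 annotated TSS, and a second peak of 14 fragments lay 418 bp downstream of a TSS. In K2 the tallest had 20 fragments (0.881 FPM) 200 bp downstream of a TSS, with a fold enrichment of 8.40 over the local background, and a second of 15 fragments stood 907 bp downstream. The peaks of 14 and 20 fragments overlapped, and their shared bases lie in intron 3 of the longest Tfpi transcript. The old WT Cre mean was 0, and the young EC-K4KO mean was 0.653 ± 0.322 FPM (SD, n = 2 each). The tallest peaks of K1 and K2, from which that mean was taken, did not overlap each other. The difference of 0.653 FPM counts libraries without a peak as 0, and was 0.409 FPM with the smallest called pileup of the library in its place and 0.426 FPM without K2. The Tfpi groups did not overlap, but 2 libraries against 2 cannot give a call, and p = 0.33 (two-sided exact permutation test) is the smallest they allow. A promoter peak in K1 and K2 and neither old WT Cre library was present at 3.12% of all genes, and the reverse pattern, shown by none of the 9 genes, at 0.784%. At q of at most 1e-05 only the peaks of K2 remained at Tfpi, and with all lists limited to the 35638 leading peaks K1 and K2 kept a promoter peak.

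Elsewhere in the 43.9 kb Tfpi gene (chr2:84432855-84476775, minus strand), single peaks of 10 to 12 fragments stood in introns 6 and 8 of the young EC-K4KO libraries, 1 in K1 and 3 in K2, and none was called in old WT Cre. A region at -6536 bp from the nearest TSS was shared by 3 libraries, with 21 fragments in O1, 12 in K1 and 19 in K2, and it contains a GT repeat of 34 bases.

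Procr, on chr2:155751117-155755471, had promoter peaks in O2 and K2, 1 from each group. In O2 the Procr pileup was 12 fragments (0.437 FPM) with the summit 300 bp past the TSS, and in K2 it was 14 fragments (0.617 FPM) with the summit 350 bp past the TSS. These peaks overlapped at chr2:155751127-155751450. The group means of 0.219 ± 0.309 and 0.308 ± 0.436 FPM (SD, n = 2 each) differed by less than the spread between libraries (two-sided exact permutation test, p = 1). A further peak of 17 fragments in intron 1 was called in K2 alone.

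Thbd, a gene with a single exon on chr2:148404466-148408188, had promoter peaks in K2 alone. One reached 23 fragments (1.01 FPM, the tallest promoter peak of the 9 genes) in the coding sequence 918 bp past the TSS, and the other reached 19 fragments 141 bp past the TSS. The taller peak stood at percentile 73.0 of the promoters with a peak in that library. A promoter peak in K2 and no other library was found at 30.5% of all genes, and 3 of the 9 genes, Thbd, Nos3 and Edn1, had this pattern. A region at -3665 bp from the Thbd TSS was shared by O2 (18 fragments) and K2 (30 fragments), and all of it is soft-masked as repeat in the reference. Another region, in the promoter window of the neighbouring somatostatin receptor gene Sstr4, was shared by 3 libraries.

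**Figure D1:**
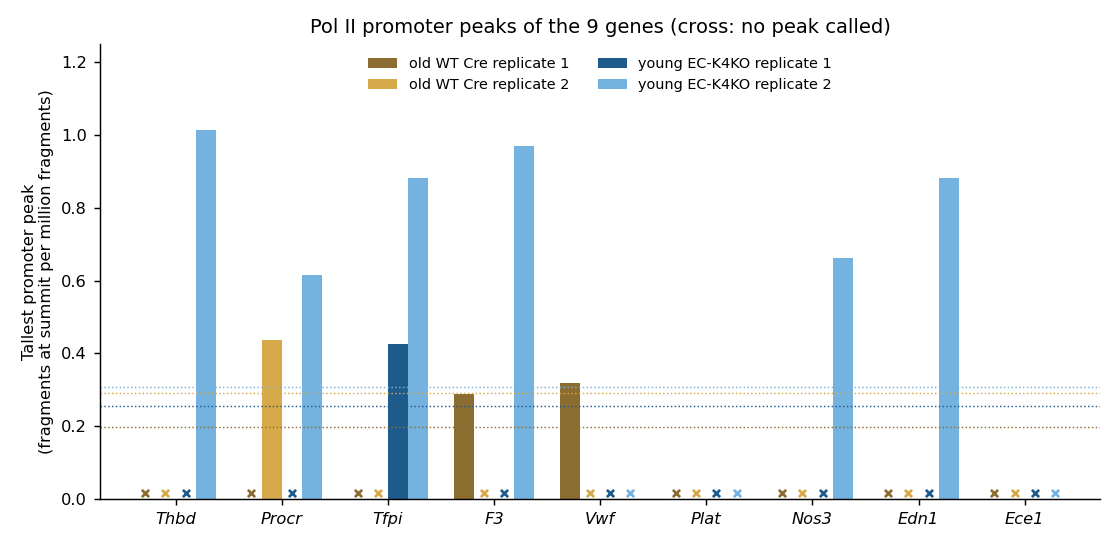
Tallest promoter peak of each gene, as fragments at the summit per 1000000 fragments of the library (FPM), in the 4 libraries (bars), with a cross where no peak was called and a dotted line at the smallest called pileup of each library. Only Tfpi has bars in both libraries of 1 group and in neither of the other, and the bars of young EC-K4KO replicate 2 run from 0.617 (Procr) to 1.01 (Thbd).

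Among the genes that promote clotting, F3 (chr3:121723537-121735048) had a promoter peak in O1 and in K2. The pileups were 19 fragments (0.289 FPM) and 22 fragments (0.969 FPM), with summits 166 and 141 bp past the TSS and fold enrichments of 3.76 and 5.73. The K2 peak spanned the TSS and the O1 peak began within exon 1. The gene Gm43823 on the other strand has its TSS in the same window, and its part in these peaks cannot be told apart from that of F3. The F3 means, 0.145 ± 0.204 FPM for the old group and 0.484 ± 0.685 FPM for the young group (SD, n = 2 each), lay within the spread between libraries (two-sided exact permutation test, p = 1). No library had a peak in the rest of the F3 gene.

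Vwf carried the most gene body peaks of the 9 genes and is also the longest of them, at 139.9 kb (chr6:125546774-125686679, 52 exons in the longest transcript). Outside the promoter windows it held 7 peaks in O1, 3 in O2, 0 in K1 and 20 in K2, or 0.517, 0.222, 0 and 1.48 per 10 kb. Its only promoter peak, 21 fragments in O1 (0.319 FPM), lay 61 bp past the nearest TSS. The summit was in the UTR of exon 1 of the longest transcript, which starts downstream of the first annotated TSS. With a window of 3000 bp, K2 also had promoter peaks at Vwf.
In 4 places within Vwf the peaks of 2 libraries overlapped. O1 and K2 met in intron 7 (26 and 19 fragments), intron 10 (27 and 21 fragments) and coding exon 28 (18 and 17 fragments). The fourth place, in intron 18, held peaks of 18 and 13 fragments in O1 and O2 and none in young EC-K4KO. Its sequence, shown above, is almost entirely built of the 4-base unit GCAG. The merged region around it holds an unbroken tract of 75 bases of that unit, and 87.7% of it is soft-masked as repeat in the reference.

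Plat, the fibrinolytic gene (chr8:22757727-22782844), had no promoter peak in any library, as did 25.4% of all genes. Its gene body held 2 peaks in O1 (29 fragments in intron 5 and 16 in intron 7), none in O2, 1 in K1 (20 fragments, coding exon 2) and 1 in K2 (11 fragments, coding exon 4). None of these overlapped another.

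Of the genes of vascular tone, Nos3 (chr5:24364810-24384474) had a promoter peak in K2 alone, with 15 fragments (0.661 FPM) in coding exon 1 and a fold enrichment of 3.10, the lowest among the tallest promoter peaks of the 9 genes. Among the promoter and body peaks of the 9 genes, those in its body had the most fragments at the summit, 34 (0.517 FPM) in intron 13 in O1 and 32 (1.41 FPM) in intron 19 in K2. In FPM the K2 peak was the tallest of these, while the O1 peak was lower than body peaks of Vwf and Ece1 in K2. Body peaks numbered 1, 0, 1 and 5 in O1, O2, K1 and K2. Outside the promoter windows, coding exon 19 was the single place in the 9 gene bodies where peaks of K1 and K2 overlapped. The peaks had 16 and 17 fragments, and neither old WT Cre library had a peak there. Around Nos3, 5 further regions of 2 libraries lay in the neighbouring sequence, 3 of them upstream in O2 and K2. Of all peaks flanking Nos3, only 1, in K2, lay off the bodies and promoter windows of other genes.

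Edn1 (chr13:42301476-42307990) had promoter peaks in K2 alone, 20 fragments (0.881 FPM, fold enrichment 6.65) 193 bp past the TSS and 13 fragments 1277 bp past it in intron 1, and no library had a peak in the rest of the gene. Ece1 (chr4:137862237-137965229) had no promoter peak within 1500 bp of its TSS, and with a window of 3000 bp K2 had one, at -2421 bp. Its body, the second longest of the 9, held 2, 1, 1 and 13 peaks in O1, O2, K1 and K2. In K2, 9 of the 13 stood in intron 1, from 9110 to 35452 bp past the TSS, and no other library had a peak in that intron. No place in the Ece1 body was shared between libraries, but a region downstream of the gene was shared by O1, O2 and K1, with 46, 26 and 18 fragments. It lies wholly in soft-masked sequence and holds a GT repeat of 34 bases.

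**Figure D2:**
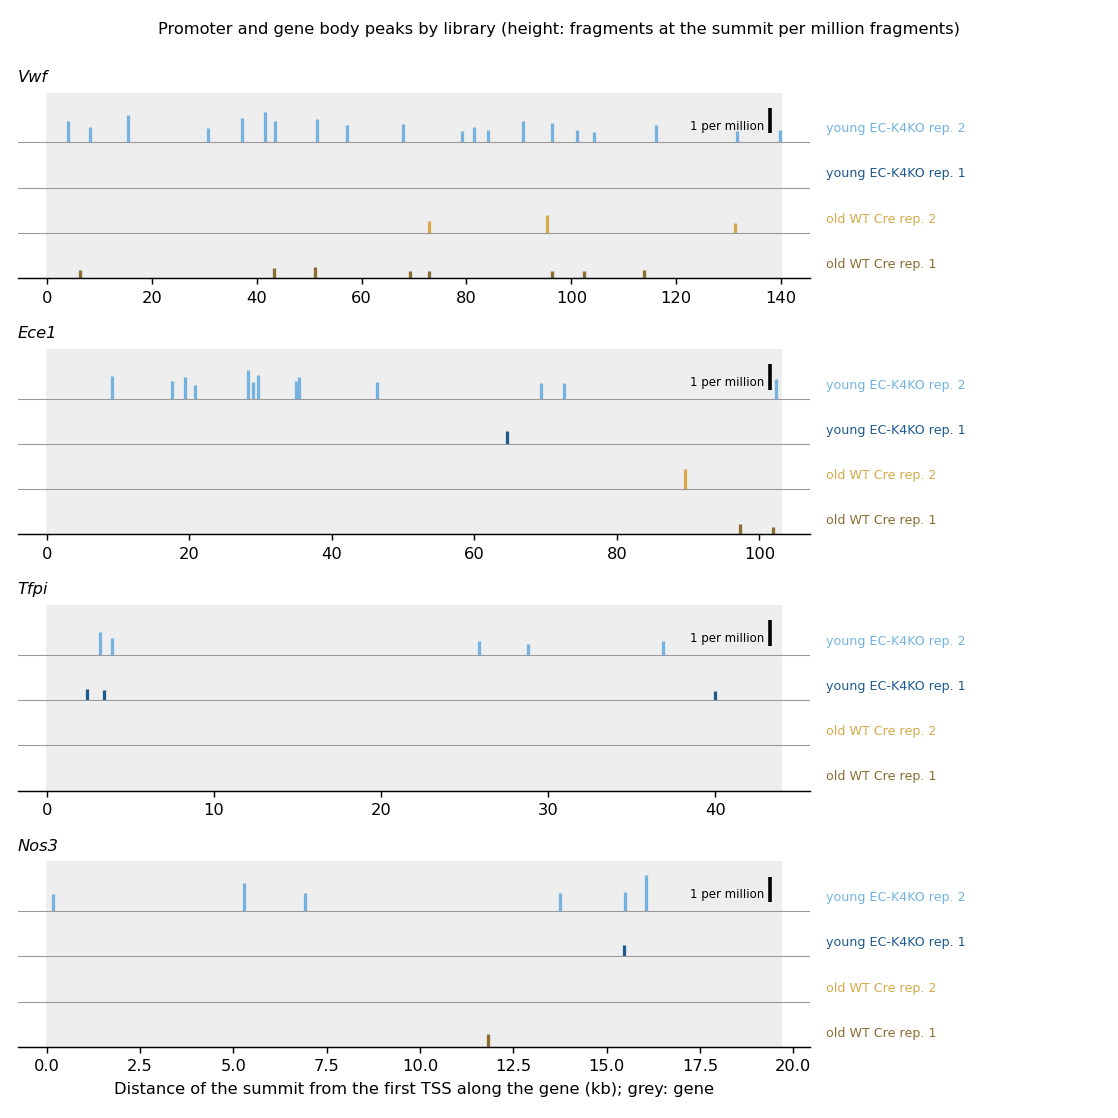
Promoter and gene body peaks along Vwf, Ece1, Tfpi and Nos3 in each library, by the distance of the summit from the first TSS in kb (the gene in grey), with the height of a line giving the fragments at the summit in FPM (black bar, 1 FPM). Vwf carries 20 and Ece1 13 gene body peaks in young EC-K4KO replicate 2, against 0 and 1 in young EC-K4KO replicate 1.

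Taking the gene bodies as a set, 4, 2, 4 and 6 of the 9 genes had a body peak in O1, O2, K1 and K2, or 44.4%, 22.2%, 44.4% and 66.7%, against 50.3%, 35.4%, 27.9% and 74.4% of the 20589 protein-coding genes with a body outside the promoter window. The means were 3 ± 1.41 and 5 ± 1.41 genes (SD, n = 2 each; two-sided exact permutation test, p = 0.667). Per length, the 9 bodies together held 0.355, 0.118, 0.118 and 1.27 peaks per 10 kb, and all genes held 0.339, 0.156, 0.125 and 0.990. The ratio of the 9 genes to all genes was thus 1.05 in O1, 0.757 in O2, 0.948 in K1 and 1.28 in K2. Group means of 0.237 ± 0.167 and 0.695 ± 0.815 peaks per 10 kb did not differ beyond the spread between libraries (SD, n = 2 each; two-sided exact permutation test, p = 1). Of the 77 promoter and gene body peaks of the 9 genes, 52 came from K2. Without that library, the differences in promoter peaks and in body peaks per length changed direction, to -0.5 genes and -0.118 peaks per 10 kb. With all lists cut to the length of the shortest, the difference in body peaks fell from 0.458 to 0.0148 per 10 kb.

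**Figure D3:**
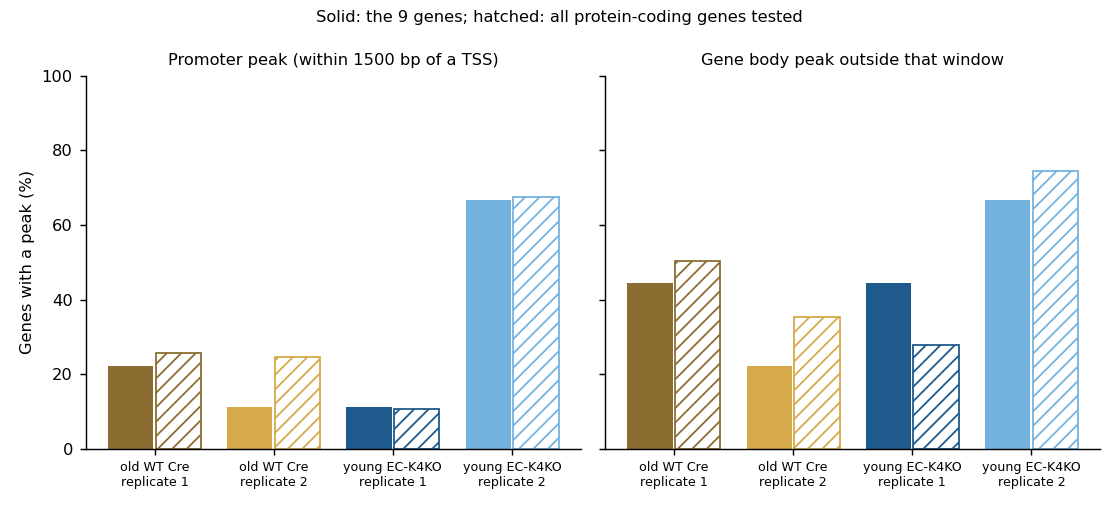
Percentage of the 9 genes (solid bars) and of all protein-coding genes tested (hatched bars) with a promoter peak (left) and a gene body peak outside the promoter window (right) in each library. The promoter bars of young EC-K4KO replicate 2 stand at 66.7% and 67.5%, and in young EC-K4KO replicate 1 the body bar of the 9 genes (44.4%) is taller than that of all genes (27.9%).

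In the 50 kb on either side, the 9 genes had 35, 18, 10 and 114 peaks in O1, O2, K1 and K2, which is 3.89, 2.00, 1.11 and 12.7 per gene against 3.99, 2.08, 1.45 and 12.03 for all genes. At least 1 such peak was present at 9, 8, 6 and 9 of the 9 genes, and at 92.8%, 82.1%, 71.7% and 99.1% of all genes. The means of 26.5 ± 12 and 62 ± 73.5 peaks lay within the spread between libraries (SD, n = 2 each; two-sided exact permutation test, p = 1), and without K2 the difference was -16.5 peaks. Of the flank peaks, 12, 5, 6 and 51 in O1, O2, K1 and K2 lay off the bodies and promoter windows of other genes.
Merging the peaks of all libraries gave 225 regions at and around the 9 genes, of which 25 (11.1%) held peaks of 2 or more libraries, against 12.7% of all merged regions in the genome. By place, 3 of 11 promoter regions, 5 of 58 body regions and 17 of 156 flanking regions were shared, and none held peaks of all 4 libraries. The 4 regions with peaks of 3 libraries all lay in the flanks, near Thbd, Vwf, Ece1 and Tfpi. In 3 of these 4, at Vwf, Ece1 and Tfpi, the region contained an unbroken CA or GT repeat of 34 bases. A tandem repeat of at least 30 bases with a unit of up to 6 bases was present in 7.54% of all merged regions of 3 or more libraries, in 5 of the 25 shared regions of the 9 genes and in 8.39% of all regions of 2 or more libraries. The share of peaks with such a repeat was 11.6% in O1, 10.3% in O2, 2.82% in K1 and 2.47% in K2. Of the 77 promoter and gene body peaks of the 9 genes 3 had one, the 2 in Vwf intron 18 and 1 at the 3′ end of Ece1. The part of such repeats in the shared regions was not tested.

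The other genes of these pathways were taken from a list of 69, all of which were found in the annotation. A promoter peak was called at 24, 22, 9 and 50 of them in O1, O2, K1 and K2, and 14 had none in any library. These are 34.8%, 31.9%, 13.04% and 72.5% of the list, against 25.6%, 24.5%, 10.6% and 67.5% of all genes, and 20.3% without a peak against 25.4%. In K1 none of the 7 other anticoagulant genes, the 12 coagulation factor and receptor genes or the 8 fibrinolysis genes had a promoter peak. In the same library 2 of 7 platelet adhesion genes, 1 of 6 of the endothelin axis, 4 of 13 of the nitric oxide axis and 2 of 16 of the other tone genes had one. Of all genes 10.6% had one there, and the groups were not compared by a test. The nitric oxide axis had a promoter peak at 7 of 13 genes in O1, 9 in O2 and 10 in K2, and in K2 the share was higher for platelet adhesion, with 6 of 7 genes. By the naming rule for this list, 3 of the 69 genes (4.35%) had a promoter peak in all 4 libraries, against 2.22% of all genes. For Cav1, the coat protein of caveolae that binds and restrains endothelial nitric oxide synthase, the tallest pileups were 0.289 FPM in O1, 0.328 in O2, 0.369 in K1 and 0.749 in K2. Prkg1, the cGMP-dependent kinase downstream of nitric oxide in smooth muscle, had 0.365, 0.510, 0.426 and 0.793 FPM in that order. Stxbp5, a syntaxin-binding protein linked to secretion of von Willebrand factor, had 0.335, 0.510, 0.341 and 1.10 FPM. In Prkg1 and Stxbp5 the groups overlapped. In Cav1 they did not overlap in FPM but did in fragments, with pileups of 19 in O1, 9 in O2, 13 in K1 and 17 in K2.
A promoter peak in K1 and K2 and neither old WT Cre library was found, as at Tfpi, at 3 of the 69 genes (4.35%), near the 3.12% of all genes. They were Rab27a (0.454 and 0.661 FPM), a small GTPase of secretory granules, Mme (0.255 and 0.661 FPM), the membrane peptidase neprilysin that degrades endothelin, and Aplnr (0.426 and 0.705 FPM), the receptor for the dilator peptide apelin. None of the 69 genes had the reverse pattern, which 0.784% of all genes showed.

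**Figure D4:**
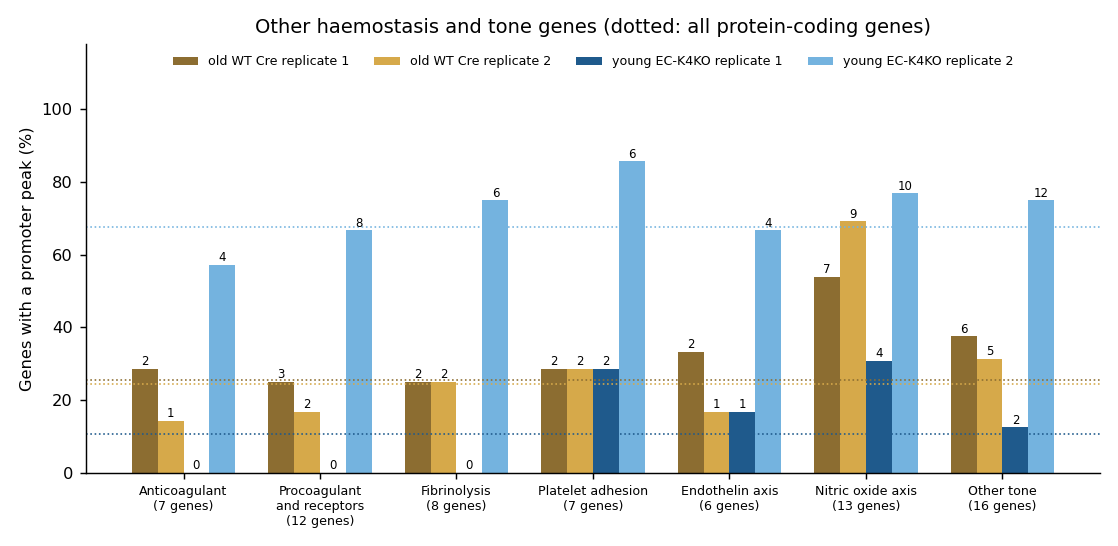
Percentage of genes with a promoter peak in each library (bars, with the number of genes above them) for 7 groups of the 69 other haemostasis and vascular tone genes, with dotted lines at the percentage of all protein-coding genes. In young EC-K4KO replicate 1 the anticoagulant, coagulation factor and fibrinolysis groups have 0 genes with a peak, and the 4 other groups have 1 to 4 each.

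Stricter lists thinned the promoter peaks further. At q of at most 1e-05, 1, 0, 0 and 5 of the 9 genes kept a promoter peak in O1, O2, K1 and K2, against 15.1%, 13.4%, 3.34% and 57.1% of all genes. With each list cut to the 35638 peaks of lowest q, the length of the shortest, 0, 1, 1 and 2 of the 9 genes had one, against 11.8%, 22.6%, 10.6% and 27.7% of all genes. Under equal lists K2 thus held promoter peaks at 2 of the 9 genes in place of 6, Edn1 and Tfpi, and those of Nos3, Thbd, Procr and F3 were no longer among them. Across the 4 libraries, the promoter peaks of the 9 genes reached 12 to 23 fragments, close to the median of 13 to 21 fragments for the tallest peak of a promoter with a peak, so each rests on few fragments.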

How the data were processed

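Pol II ChIP-seq peak tables of 4 libraries (2 old WT Cre, 2 young EC-K4KO) were used. According to the study's methods, the authors trimmed reads with TrimGalore, aligned them to mm10 with Bowtie2, removed PCR duplicates and called peaks with MACS2. Per the file headers, MACS 2.2.7.1 ran on each library by itself at a q cutoff of 0.01 without a control library and with duplicates in its input kept. Each deposited peak has a pileup, which is a coverage signal, a fold enrichment, which is a ratio to local background, and a −log10 value for both p and q, none scaled between libraries. The deposited narrow peak and summit lists were not used.

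Here pileups were divided by the fragments in the header. Peaks were assigned to genes of the GENCODE M21 basic annotation (GRCm38) when at least 1 bp overlapped the window within 1500 bp of any TSS, the rest of the gene, or 50 kb on either side. A library without a peak counted as 0, although such a gene may have signal under the calling threshold. Exon and intron numbers are those of the longest transcript. Groups were compared by two-sided exact permutation of the 4 libraries. Merged regions join peaks that overlap by at least 1 bp. Python 3.11.15, numpy 2.4.6, pandas 2.3.3, scipy 1.17.1 and samtools 1.23.1 were used. The assignment was tested on simulated data, where 2000 of 2000 genes came out as planted. The 9 genes, the list of 69 and the markers were chosen with earlier results of these data known, and the length of tandem repeat was chosen after the sequences were seen. From the list of 69, genes are named where a promoter peak was called in all 4 libraries, or in both libraries of 1 group and neither of the other. A rule to name genes most like a member required promoter peaks in 3 or more libraries and named none. The alternatives were stricter q, a minimum fold enrichment, lists of equal length, other windows and scalings, and leaving out each replicate. ATAC-seq and RNA-seq data were not analysed here. Intervals for pileups are not given, since fragments without molecular identifiers are not independent molecules.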

Additional observations from a re-analysis of the deposited data

How the results depend on the processing

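The difference between groups (young EC-K4KO minus old WT Cre) in the number of genes with a promoter peak, 2, ran from -0.5 to 4.5 when each replicate was left out in turn. For flank peaks, 35.5, the range was -16.5 to 87.5, and for body peaks per 10 kb, 0.458, it was -0.118 to 1.03. The number of genes with a higher mean promoter pileup in young EC-K4KO was 6, and 1 to 6 when a replicate was left out. In each case the end against the main direction, or the lowest count, came without young EC-K4KO replicate 2. Leaving out a replicate moved the difference in pileup from -0.219 to 0.398 FPM (fragments per 1000000) for Procr and from -0.145 to 0.824 for F3. At q of at most 1e-05 the difference in genes with a body peak was 0 in place of 2. With lists of equal length, the difference in body peaks shrank from 0.458 to 0.0148 per 10 kb and those in genes with a promoter peak and with a body peak from 2 to 1, the flank difference was -3.5, the genes higher in young EC-K4KO numbered 2 and the Procr difference was -0.219. A promoter window of 3000 bp turned the Vwf difference from -0.160 to 0.259 FPM, because peaks of young EC-K4KO replicate 2 came into the window, and gave Ece1, with no promoter peak in the main window, a difference of 0.440. The other values cover the 4 group differences, the count of genes higher in young EC-K4KO and the count of shared promoter positions. Under the alternatives run, these 62 kept their direction, or stayed at 0 where the main value was 0, but not their size. The difference in genes with a body peak, for example, was 1 in place of 2 without old WT Cre replicate 2 or without young EC-K4KO replicate 2. Some of the 62 could not have changed. Exchanging labels within replicate numbers, described below, leaves every difference as it is. Stricter lists and a narrower window cannot raise a count of shared positions above 0. Of the values for single genes, 191 stayed within the limits set for them, 38 moved and 5 reversed. Among those that moved, the Nos3 difference went from 0.330 FPM to 0 at q of at most 1e-05 and at a fold enrichment of at least 4, and that of Vwf went to 0 at that fold and without old WT Cre replicate 1.

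The replicate numbers are shared between the groups, but the deviations of same-numbered libraries correlated at only 0.149 over the 487 genes with a promoter peak in all 4 libraries, and nothing says that a number marks a shared animal or day. With the replicate block, labels are exchanged only within a number. This can alter only the p, so the differences of 2, 2, 35.5 and 0.458 and the 6 genes higher in young EC-K4KO are the same by construction. No result could pass a threshold of significance in this design, so these directions are descriptions. A gene without a peak is not shown to lack signal: the lowest called peaks had 0.198 to 0.308 FPM, and the level needed at a gene depends on its local background. The library with the fewest fragments had the most peaks, so the number of peaks did not follow depth.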
